A study of Bos taurus with 23 samples.

Results

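Among the 24616 genes counted in peripheral white blood cells (PWBC) of beef heifers, the 100 genes with the highest mean CPM over 23 libraries are described here. They were taken from the 10422 genes that passed the authors' filter of more than 1 CPM in 6 or more libraries at both of 2 experimental stations, without the genes the study had called for pregnancy outcome. That left 10401 genes, of which the members are the 100 most abundant. CPM, the counts per 1000000, scales the read pairs on a gene to the total counted in that library, and it chose the members, so their high level is the rule and not a finding. A single gene was kept out by its earlier call: ENSBTAG00000026779, which the study names as LYZ (lysozyme), would have ranked 78 with 1046 CPM.

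The heifers were Angus and Simmental crosses with synchronized estrus that received fixed-time artificial insemination (AI) followed by exposure to bulls, and blood was drawn at AI. Station A contributed 6 AI-pregnant heifers and 5 NB-pregnant heifers, whose pregnancy came from natural breeding (NB). Station B contributed 6 AI-pregnant heifers and 6 that were non-pregnant. Each heifer gave 1 library from total RNA of the white cell fraction, prepared with a stranded mRNA kit. Station, herd and library series cannot be told apart. Total counts ranged from 4826003 to 20434401 read pairs per library.

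White blood cells in circulation are a mixture of neutrophils, lymphocytes, monocytes and rarer types, and the messages that dominate such a mixture usually serve functions common to most cells, such as protein synthesis, energy production and the cytoskeleton. Mitochondria carry a small genome of their own, whose transcripts are present in many copies per cell and carry short poly(A) tails, so they are captured by libraries made from mRNA. A library is a finite sample of read pairs, and a rise in the share of its most abundant transcripts leaves fewer pairs for all others. In bulk blood, fewer cells of a type and less RNA per cell cannot be told apart.

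The identifiers of the members could not be paired with gene names here, since 0 of 100 matched the table of names, and no function is assigned to them. Whether PWBC markers were present was therefore not checked. Gene length was the property that could be added. The members were shorter than other retained genes, with a median of 1399 bases against 2039 bases over the 10422 genes. Lengths of 13 members, with a single base added to each, equal those of genes on the mitochondrial chromosome in RefSeq. Of these, 11 match protein coding genes and 2 match ribosomal RNA, each with a length of its own. A length does not identify a gene, and 41 other retained genes (0.397%) also have such a length, the most abundant of them at 729 CPM. These 13 are called members of mitochondrial gene length. Of the other 87 members, 25 were under 1000 bases, 29 were between 1000 and 2000 bases and 33 were over 2000 bases.

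The member with the highest level was ENSBTAG00000043561, one of the members of mitochondrial gene length, at 11556 ± 8547 CPM (SD, n = 23). It ranged from 3537 to 32249 CPM and was the most abundant gene in 21 of 23 libraries. Members of mitochondrial gene length took 8 of the first 10 ranks and 10 of the first 13. The other members among the first 10 were ENSBTAG00000012330, at 3488 ± 959 CPM, and ENSBTAG00000013468, at 3058 ± 1397 CPM. Levels in CPM do not correct for length. In the authors' FPKM, which do, ENSBTAG00000043561 stayed at rank 1 and ENSBTAG00000012330 was at rank 7, whereas ENSBTAG00000013468, with a length of 16784 bases, was at rank 501. Only 55 of the 100 members were also among the 100 genes with the highest mean FPKM.

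The level fell gradually at the limit of the rule. The last members were at 896, 895 and 888 CPM and the first genes outside it at 885, 884 and 883 CPM. Ranked by the median over libraries in place of the mean, 87 of the 100 members would have been kept. Every member exceeded 1 CPM in every library. The lowest value of any member in any library was 12.8 CPM, and no member had fewer than 100 read pairs in a library.

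Before the shares are compared, the libraries have to be described, because they did not form a single population within either station. In the genes outside the members, the first principal component of log2 CPM took 75.6% of the variance in station A and 84.8% in station B. The 5 station A libraries with a positive score were the AI-pregnant SL220771 and SL220772 and the NB-pregnant SL220767, SL220773 and SL220774, with scores from 51.0 to 93.5. The other 6 scored from -78.9 to -10.5. In station B the positive libraries were the AI-pregnant SL253808 and the non-pregnant SL253804 and SL253811, with scores from 144 to 176, and the other 9 scored from -105 to -24.4. Libraries are called high or low by the sign of this score. No member was among the genes scored, but the CPM of those genes were scaled to totals that include the members. A larger share of the members lowers the CPM of the other genes, so the score is not independent of that share. The sign is set within each station, so high in one station is not the same profile as high in the other. The 5 high libraries of station A had the fewest counted pairs of that station, 4826003 to 6105250. They were not the 5 with the fewest sequenced pairs. The paper lists fewer sequenced and fewer aligned pairs for the low library SL220768 than for any of them. The part of counted pairs, or of pairs lost between alignment and counting, in what follows was not tested. The 3 high libraries of station B had 1455 to 1602 of the 1706 genes retained only in station A above 1 CPM, and the 9 low ones had 17 to 147.

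The 100 members took between 11.9% and 27.0% of all counted pairs in a library. The 95% Wilson interval of each share was at most 0.0792 percentage points wide, and such intervals cover counting error only. In station A, the AI-pregnant heifers had shares of 13.2%, 13.4%, 14.6%, 15.9%, 21.8% and 24.2%, and the NB-pregnant heifers had 11.9%, 15.6%, 24.7%, 26.2% and 27.0%. Both groups were split by a wide gap. The 5 shares above 20% were those of the 5 high libraries, at 21.8% to 27.0%, and the 6 low libraries ranged from 11.9% to 15.9%.

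Station B was narrower. Its AI-pregnant heifers had shares of 13.1%, 14.0%, 14.6%, 15.1%, 15.2% and 17.0%, and its non-pregnant heifers had 12.6%, 13.9%, 14.2%, 15.2%, 16.0% and 16.6%. The 3 high libraries of this station, at 12.6% to 14.6%, overlapped the 9 low ones, at 13.1% to 17.0%, and included the lowest share of the station.

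**Figure D1:**
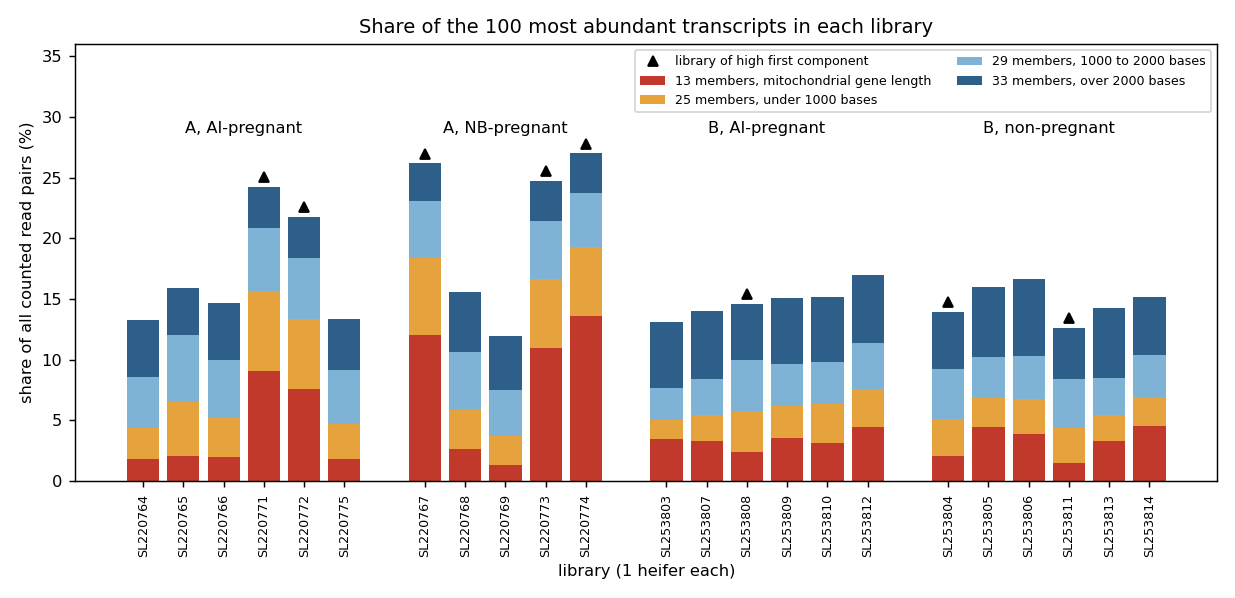
Bars give the share of all counted read pairs (%, vertical axis) taken by the 100 members in each of 23 libraries (horizontal axis), stacked by length class and grouped by station and outcome; triangles mark libraries with a high first component. The 5 marked bars of station A reach 21.8% to 27.0%, and no other bar exceeds 17.0%.

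In station A the mean share of the AI-pregnant heifers was 17.2% ± 4.66 (SD, n = 6). That of the NB-pregnant heifers was 21.1% ± 6.87 (SD, n = 5). The difference of 3.89 percentage points was smaller than the pooled SD of 5.75 points. Among the 6 low libraries alone the difference was -0.55 points and among the 5 high libraries 2.97 points. Of the NB-pregnant heifers 3 of 5 were high, and of the AI-pregnant heifers 2 of 6. In station B the AI-pregnant heifers had a mean share of 14.8% ± 1.32 (SD, n = 6). The mean of the non-pregnant heifers, 14.7% ± 1.46 (SD, n = 6), differed from it by -0.08 points against a pooled SD of 1.39 points. Without the 3 high libraries of station B the difference was 0.62 points, opposite in sign and also within that SD. Between the AI-pregnant heifers of the stations, B minus A was -2.36 percentage points, less in size than the pooled SD of 3.43 points. Without the high libraries SL220771, SL220772 and SL253808, left out after seeing the data, it was 0.59 points.

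The members of mitochondrial gene length varied more in their share than the others. The 13 together took 1.29% to 13.6% of a library, with an SD of 3.56 points over the 23 libraries, and the other 87 took 9.62% to 15.1%, with an SD of 1.39 points. In the 5 high libraries of station A the 13 members took 7.58%, 9.09%, 11.0%, 12.03% and 13.6%, and in the 6 low libraries of that station 1.29% to 2.63%. The 9 low libraries of station B fell between these ranges, at 3.17% to 4.51%. The 3 high libraries of station B, at 1.47% to 2.41%, overlapped the low libraries of station A. With these 13 genes left out of both the members and the total, the difference between NB-pregnant and AI-pregnant heifers of station A was 0.48 points.

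Within the 5 high libraries of station A, the 3 NB-pregnant heifers had the larger shares of mitochondrial gene length, 11.0% to 13.6%, and the 2 AI-pregnant heifers the smaller, 7.58% and 9.09%. Within the 6 low libraries the NB-pregnant heifers had the extremes, 1.29% and 2.63%, and the 4 AI-pregnant heifers lay between them at 1.78% to 2.09%. These subsets were defined from the libraries themselves and are given as values.

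ENSBTAG00000043561 shows the same levels in CPM. In the 6 low libraries of station A it was at 3537, 4894, 4906, 5150, 5987 and 7834 CPM, and in the 5 high ones at 19063, 23249, 27007, 29904 and 32249 CPM. In station B the 9 low libraries ranged from 7879 to 11677 CPM and the 3 high ones were at 4126, 5623 and 6123 CPM. No high library of station A overlapped any other library.

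The ratio of high to low libraries was then set against the length of the members. In station A, all 13 members of mitochondrial gene length were above every low library in every high library, with a median ratio of mean CPM of 5.59. This was also so for 15 of 25 members under 1000 bases, for 4 of 29 between 1000 and 2000 bases and for 3 of 33 over 2000 bases. Of the genes outside the members, 23.1%, 14.0% and 6.40% of the same 3 length classes were entirely above, so that the share of the middle and long members was near that of other genes of their length. In the opposite direction, every high library was below every low library for 0 of the 25 shortest and 9 of the 33 longest members, where 26.7% and 44.6% of genes outside the members were. Over all 100 members, 35 were entirely above and 11 entirely below. Of the 10422 genes, 11.7% were entirely above and 39.0% entirely below. The split into high and low was made on the other genes of the same libraries, so no test was applied to these counts.

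Across the 87 members of other lengths, Spearman's rho between length and the log2 ratio of high to low libraries was -0.67 in station A, against -0.25 across all 10422 genes. Genes within a library share its depth and composition, and these are descriptions over genes, not over replicates. ENSBTAG00000013468, the longest of the first 10 members, was at 582, 690, 961, 1041 and 1225 CPM in the high libraries. The low libraries held 1410 CPM in SL220765 and 3949 to 4549 CPM in the other 5.

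**Figure D2:**
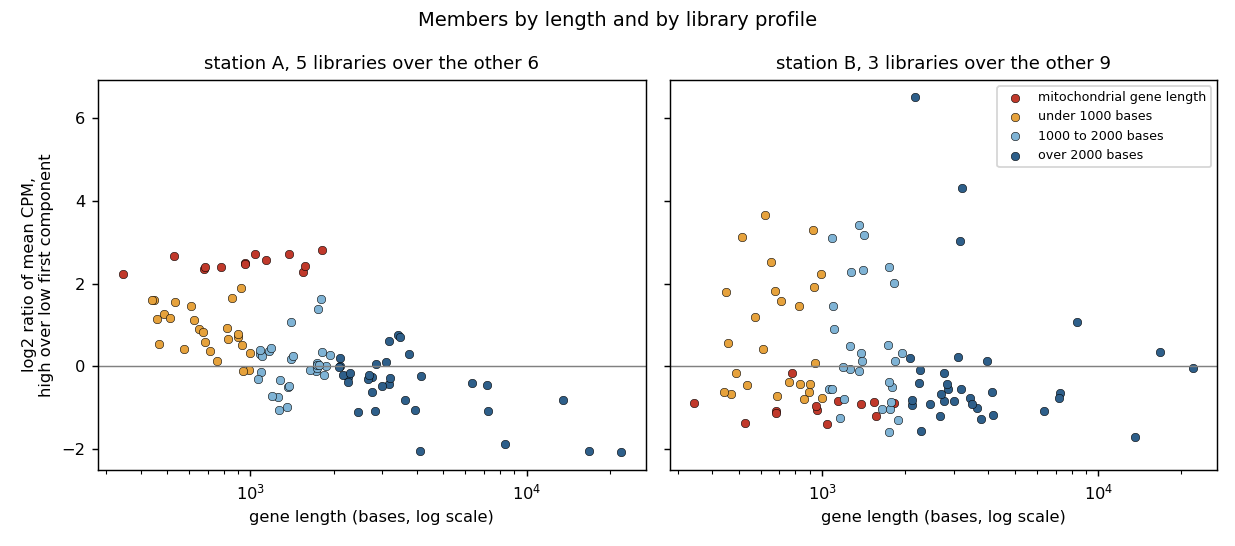
Each point is a member, placed by gene length (bases, log scale) and by the log2 ratio of its mean CPM in libraries of high over low first component, for station A (5 over 6 libraries) and station B (3 over 9). In station A the points descend with length (rho -0.67 over the 87 members of other lengths), and the 13 members of mitochondrial gene length lie above 2; in station B those 13 lie below 0.

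Station B had another arrangement. All 13 members of mitochondrial gene length had lower means in its 3 high libraries, with a median ratio of 0.514, and 12 of them were lower without overlap. Of the 100 members, 24 were entirely above and 40 entirely below in the high libraries, against 36.4% and 33.4% of the 10422 genes. The members entirely above were 11 of 25 under 1000 bases, 9 of 29 between 1000 and 2000 bases and 4 of 33 over 2000 bases, against 33.0%, 39.1% and 35.9% of genes outside the members of the same lengths. Of the longest class, 20 of 33 members were entirely below, against 36.3% of other genes over 2000 bases. Across the 87 members of other lengths rho was -0.34, and -0.03 across all genes.

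**Figure D3:**
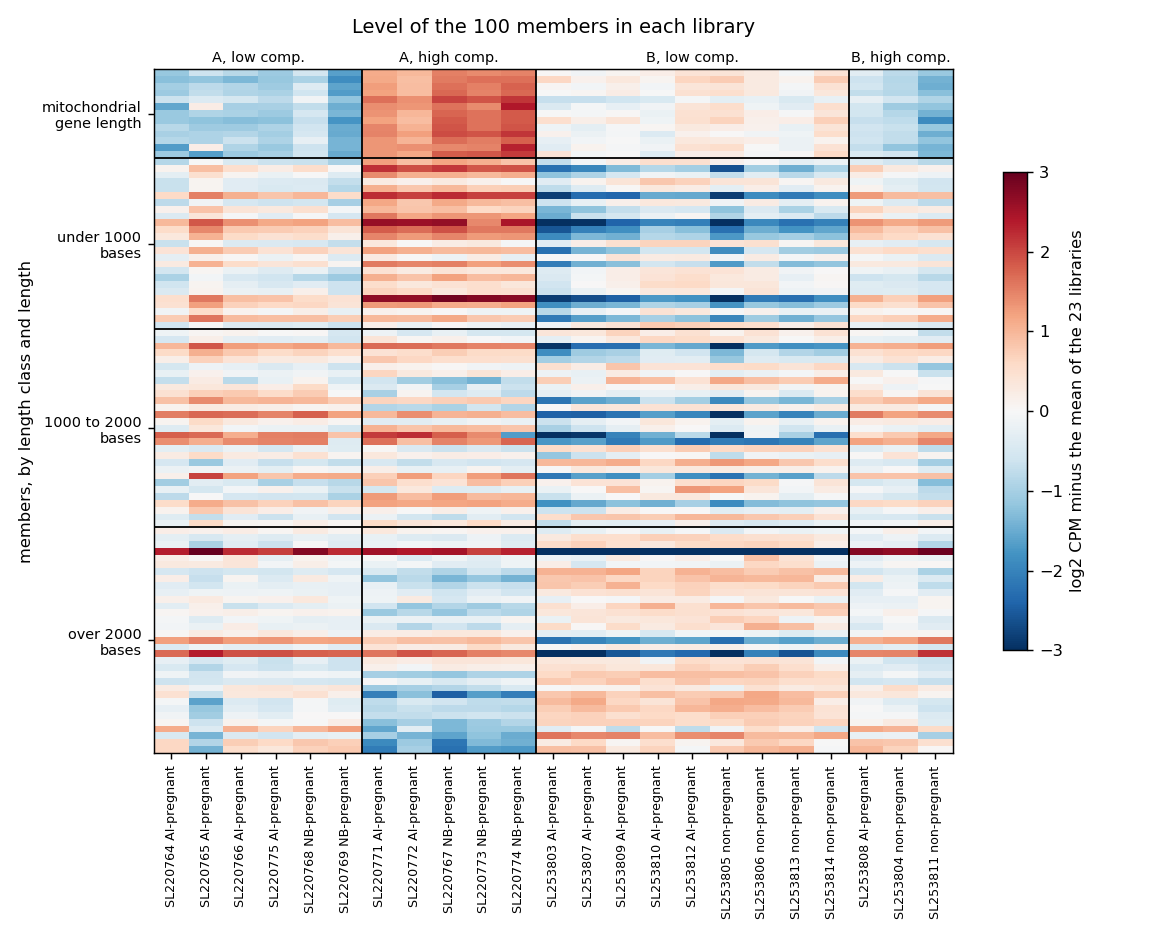
Rows are the 100 members, ordered by length class and length, columns are the 23 libraries grouped by station and first component, and colours give log2 CPM minus the mean of the member over all libraries. The block of 13 members of mitochondrial gene length is high in the 5 high libraries of station A, and a set of rows is lower in the 9 low libraries of station B than in other libraries.

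Some members were far lower in the 9 low libraries of station B than elsewhere. ENSBTAG00000031160, chosen for mention after its values were seen because its range was the widest, ranked 27 with 1760 CPM. In those 9 libraries it was at 12.8 to 56.6 CPM. In the 3 high libraries of station B it was at 3081 to 3781 CPM, and station A began at 2026 CPM, so its lowest and highest libraries differed 382-fold. The median fold from the lowest to the highest library was 4.63 over the 100 members, and 29 members exceeded 10-fold. For 18 of these 29 the lowest library was a low library of station B. The same fold was not computed over all genes, so these counts are not a trait of the members. Lower in all 9 low libraries of station B than in its 3 high ones were 24 members, against 36.4% of the 10422 genes.

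No member separated all 11 libraries of station A from all 12 of station B. Set against the 9 low libraries of station B only, 24 members were entirely above and 20 entirely below in station A, where 25.9% and 27.9% of the 10422 genes were.

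Variation differed among the members. The coefficient of variation over the 23 libraries ranged from 13.3% to 112%, with a median of 46.9%, and it was at least 63.9% for each of the 13 members of mitochondrial gene length. ENSBTAG00000012044, with 923 bases, varied most, at 1272 ± 1420 CPM, followed by ENSBTAG00000015388, at 956 ± 917 CPM, and ENSBTAG00000043560, at 3902 ± 3655 CPM. ENSBTAG00000008853 varied least, at 943 ± 125 CPM, with 971 to 1163 CPM in station A and 697 to 1050 CPM in station B. Next came ENSBTAG00000001553, at 1008 ± 150 CPM, and ENSBTAG00000018588, at 1152 ± 173 CPM. Within groups of the same station and outcome, the SD of log2 CPM had a median of 0.549 over the members and 0.668 over the 10422 genes. It was 0.998 for the members of mitochondrial gene length and 0.489 for the other 87.

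**Figure D4:**
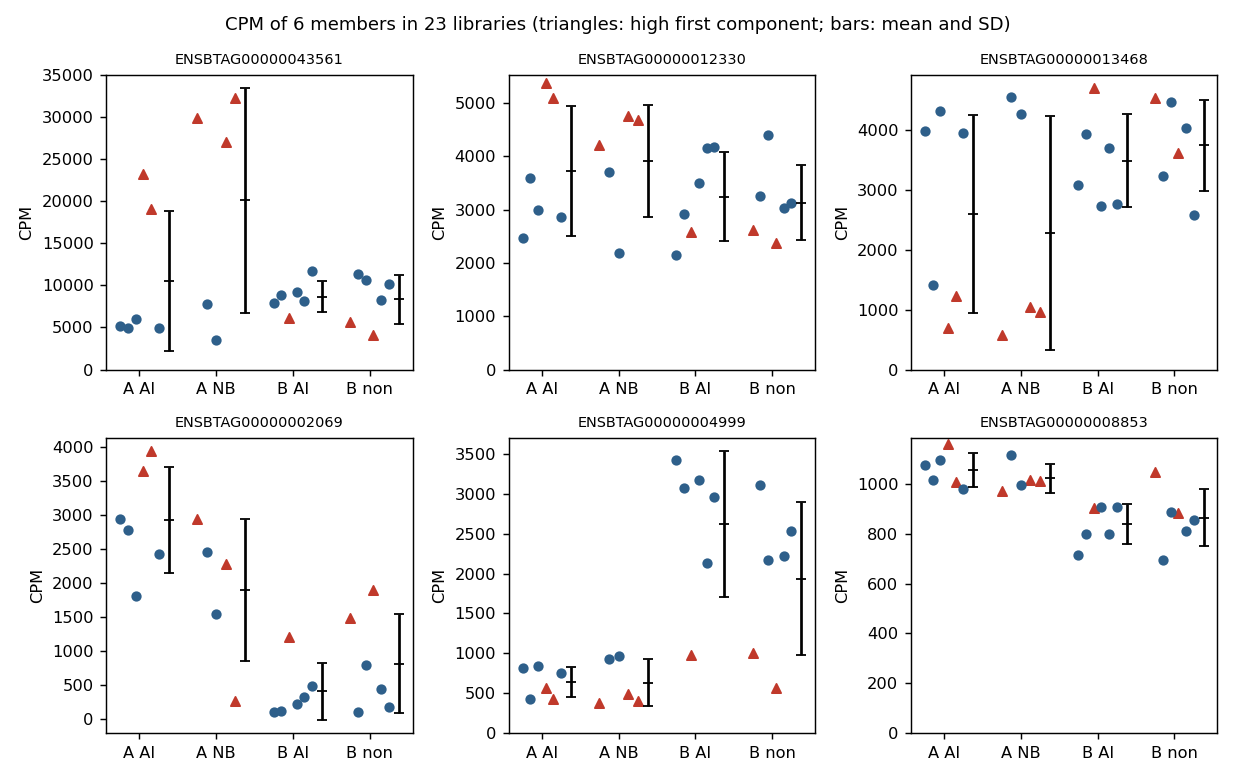
CPM of 6 members (vertical axes, all including 0) in each library, by station and outcome (A AI, A NB, B AI and B non for AI-pregnant, NB-pregnant and non-pregnant heifers); triangles are libraries of high first component, circles the others, and bars the mean and SD of the group. ENSBTAG00000043561 and ENSBTAG00000013468 are divided in station A by the first component, and ENSBTAG00000008853 stays between 697 and 1163 CPM.

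The first comparison asked whether members differed between NB-pregnant and AI-pregnant heifers of station A. No member passed. With edgeR's quasi-likelihood test and Benjamini-Hochberg adjustment over all 12128 genes of the station, 0 of 100 members and 0 genes (0.0%) were called at an adjusted p under 0.05, and 0 members and 101 genes had an unadjusted p under 0.05. DESeq2 called 0 members and 2 genes. The rule of the study asks for a P of at most 0.01 without adjustment in edgeR and in DESeq2. It called 0 members and 18 genes (0.148%), but the members were chosen without the genes the study called.

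The members of mitochondrial gene length nevertheless had the largest fold changes. The log2 fold changes of all 13 were positive, from 0.99 to 1.34, with a median of 1.14. Over all 100 members the median was 0.14 and over all genes 0.01. Without normalization factors these medians were -0.02 and -0.12, so the sign of the members' median turned with the scaling, while the median of the 13 was 0.99. ENSBTAG00000043563 was at 729, 1063, 1070, 1141, 5085 and 5694 CPM in AI-pregnant and at 802, 1499, 8016, 8259 and 9788 CPM in NB-pregnant heifers. The 2 groups overlapped, and within each the high libraries were apart from the low ones. Its log2 fold change was 1.34 ± 0.86 (SE), with an adjusted p of 0.999 from edgeR, and the two-sided exact permutation test of its CPM gave p = 0.13. ENSBTAG00000043571 had a log2 fold change of 1.32 ± 0.84 (SE). In the opposite direction the smallest P were those of ENSBTAG00000013919, at -0.32 ± 0.27 (SE), and ENSBTAG00000002069, at -0.50 ± 0.51 (SE).

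The fold changes of these 13 members moved with the library profile. Their median log2 fold change was 0.02 among the 6 low libraries and 0.60 among the 5 high ones, and it was 0.47 with the score as a covariate. With the covariate 6 of the 100 members had an unadjusted p under 0.05, near the 5.71% of all genes. Among the high libraries, 2 AI-pregnant and 3 NB-pregnant, 11 of the 100 did, against 2.13% of all genes. These fits were added after seeing the data. Genes within a library share its depth and composition, so the counts of members are values only and not a result about outcome. By edgeR's adjusted p, 0 members were called in either fit, and 0 and 3 genes.

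The second comparison asked the same of non-pregnant and AI-pregnant heifers of station B. Of the 100 members and of the 10832 genes tested, 0 were called by the quasi-likelihood test (0.0% of genes), and 0 members and 48 genes had an unadjusted p under 0.05. DESeq2 called 0 members and 0 genes. The rule of the study called 0 members and 6 genes (0.0554%), but here too the members were chosen without the genes the study called. The median log2 fold change was -0.05 over the members and 0.03 over all genes. For the 13 members of mitochondrial gene length it was -0.07, with a range of -0.13 to 0.00. Without the 3 high libraries of this station the median of the 13 was 0.13, with all 13 positive at 0.10 to 0.24, and with the score as a covariate it was 0.02.

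The members with the smallest P in this comparison were also within the spread of the heifers. ENSBTAG00000000778 was at 789 to 1279 CPM in AI-pregnant and at 980 to 1712 CPM in non-pregnant heifers, with a log2 fold change of 0.27 ± 0.17 (SE). ENSBTAG00000002069 followed at 1.05 ± 0.80 (SE). On the lower side were ENSBTAG00000031750, at -0.22 ± 0.14 (SE), and ENSBTAG00000027246, at -0.28 ± 0.18 (SE). The adjusted p of all 4 was 0.874 from edgeR. Without the AI-pregnant library SL253808, 13 members and 2281 genes had an unadjusted p under 0.05, and 0 of either were called.

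The third comparison set the AI-pregnant heifers of both stations against each other, with 6 per station. Of the 100 members, 48 were called by the quasi-likelihood test, 17 higher and 31 lower in station B. Of the 10422 genes tested 60.8% were called, 30.2% higher and 30.6% lower. The share of members called was below this background, a difference that was not tested. It was not below it without the filter, where 42 of 100 members and 41.4% of 18481 genes were called. Without normalization factors the split of the 48 calls was 22 higher and 26 lower, and over all genes 3485 were called higher and 2733 lower. The median log2 fold change was -0.34 over the members and -0.07 over all genes. Members were chosen by mean CPM over the libraries of both stations, so a gene could enter through a high level at a single station. Size and direction of these changes are therefore not independent of the choice.

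The calls are given here by length class, beside those of other genes of the same length, and differences between the classes were not tested. None of the 25 members under 1000 bases rose in station B and 13 fell, where 19.3% of genes outside the members rose and 35.6% fell. Between 1000 and 2000 bases 3 of 29 rose and 13 fell, against 26.8% and 35.1%. Over 2000 bases 14 of 33 rose and 4 fell, against 36.0% and 26.1%. Of the 13 members of mitochondrial gene length 1 fell and 0 rose, with log2 fold changes from -1.24 to -0.0046.

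ENSBTAG00000004999 had the largest rise among the members called. Its length was 13561 bases, and it was at 425, 430, 563, 757, 817 and 836 CPM in station A and at 973, 2133, 2967, 3071, 3171 and 3434 CPM in station B. The stations did not overlap, and the lowest heifer of station B was SL253808. The log2 fold change was 1.88 ± 0.30 (SE, edgeR adjusted p = 0.00331). The two-sided exact permutation test gave p = 0.00216, the smallest it can give with 6 against 6. The gene was picked among the 100 members for its rise in these same heifers. The lack of overlap and the permutation p therefore follow in part from the choice and add no separate evidence. How many other genes separate these heifers is not given.

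ENSBTAG00000005408 was called higher as well, at 591 ± 103 CPM in station A and 1605 ± 490 CPM in station B (SD, n = 6 each). Its log2 fold change was 1.25 ± 0.26 (SE). Its lowest heifer of station B, SL253808, was within the range of station A.

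ENSBTAG00000002069 had the largest fall. It was at 1804, 2423, 2776, 2933, 3648 and 3932 CPM in station A and at 99.9, 112, 211, 313, 482 and 1201 CPM in station B. The stations again did not overlap, and SL253808 was nearest to the other station. This member too was picked for its change in these heifers, so the lack of overlap follows in part from the choice. The log2 fold change was -3.09 ± 0.60 (SE, edgeR adjusted p = 0.00337). ENSBTAG00000012044, with the widest relative variation of all members, fell from 1935 ± 1287 CPM to 292 ± 426 CPM (SD, n = 6 each), with a log2 fold change of -3.01 ± 0.80 (SE, edgeR adjusted p = 0.00791). Its median over the 23 libraries was 809 CPM, below the mean of 888 CPM of the last member, so high values in part of the libraries brought it in.

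**Figure D5:**
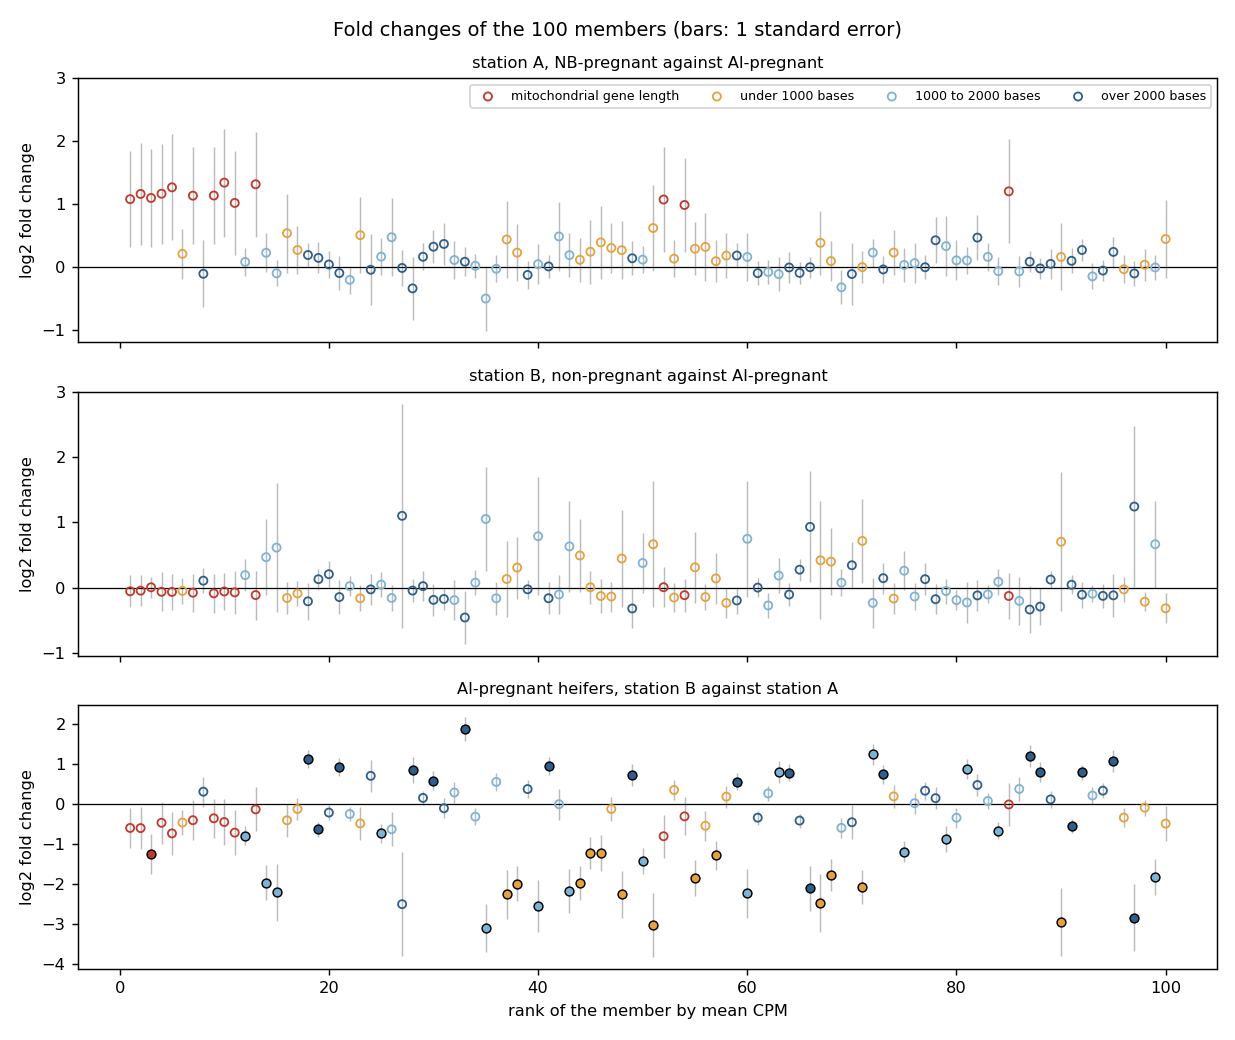
Log2 fold change of each member (vertical axis, bars 1 SE) by its rank in mean CPM (horizontal axis) in the 3 comparisons; filled points were called by edgeR's quasi-likelihood test and open points were not. No point is filled in the comparisons of outcome, and 48 are filled between stations.

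These counts depended on the libraries compared. Without the high libraries SL220771, SL220772 and SL253808, 71 members were called, 41 higher and 30 lower in station B. Of the 10422 genes 79.5% were then called, 4062 higher and 4226 lower. The median log2 fold change of the members was then 0.36, opposite in direction to the value with all libraries. Of the members of mitochondrial gene length, 10 of 13 were then called higher in station B and 0 lower, with a median log2 fold change of 0.98. This fit was added after seeing the data, and it does not match the stations in profile. The low libraries of station A had 1561 to 1624 of the genes retained only in station A above 1 CPM, and those of station B 17 to 147.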

How the data were processed

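PWBC of 23 heifers were sequenced, 11 at station A and 12 at station B, with 1 library per heifer. Reads were aligned by the authors to the UMD3.1 assembly, pairs with several alignments and duplicates were discarded, and HTSeq assigned what was left to Ensembl genes. The aligner is not given in the sources used here. The deposited counts are whole numbers without normalization. The authors computed FPKM from the counts of the retained genes, dividing by gene length and library total. Removing duplicates can lower the most abundant and shortest genes, and removing multiply aligned pairs can lower genes with near-identical copies, so members with such copies are uncertain.

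CPM were computed from the full count tables. Members were the 100 genes of highest mean CPM among the genes retained at both stations, without those the study called. Members and lists were chosen with earlier results of these data known. Lengths are those implied by the FPKM, and a single base was added to them for the match to mitochondrial genes. Library profile was the sign of the first principal component of log2 CPM (prior count 2) of the genes outside the members, computed within each station. These CPM were scaled to the total of all genes, members included.

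Each comparison was fitted over all genes tested with edgeR's quasi-likelihood test, TMM factors and Benjamini-Hochberg adjustment at 0.05. For single members, CPM were also compared by exact permutation, two-sided. Those members were picked by their change or P in the same comparison, so their permutation p-values are not independent of the choice. No test was made on summed shares or between libraries grouped by profile. P-values of the comparison between stations measure the spread between these heifers. Alternatives were no normalization factors, DESeq2, the rule of the study, no filter or more than 1 CPM in every library, 1 fit of all 4 groups, members by median CPM or mean FPKM, leaving out each library, and leaving out the 3 high libraries of station B. Added after seeing the data were fits within profiles, the first component as a covariate, and shares without the 13 members of mitochondrial gene length. The quasi-likelihood test was also run on simulated counts. Genes varied independently there, without library profiles like those seen here, so that run gives no assurance for these comparisons.

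Named members were the first of the ranking, those at its limit, the 3 most and 3 least variable, and in each comparison those called with the largest change, or with the smallest P where none was called. Names of genes could not be matched, so the number was limited to 2 in each direction, and lists by function and cell type markers were not analysed. Sequences are not shown. Software versions were DESeq2 1.42.0, edgeR 4.0.16, limma 3.58.1 and R 4.3.3, with Python 3.11.15, numpy 2.4.6, scipy 1.17.1, pandas 2.3.3 and matplotlib 3.10.9.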

Additional observations from a re-analysis of the deposited data

Results flagged for a closer look

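The AI-pregnant library SL253808 of station B lay far above the other 5 AI-pregnant heifers of that station for 3 of the members examined one by one. It held 1483 CPM of ENSBTAG00000013919, where the next heifer had 971 CPM. For ENSBTAG00000002069 it held 1201 CPM against 482 CPM in the next, and for ENSBTAG00000012044 1159 CPM against 169 CPM. These were 3 of 88 groups examined over 22 values, and chance alone flags about 1 in 20 groups. SL253808 is the AI-pregnant library of station B with a high first component. The part of that profile in these values was not tested.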

How the results depend on the processing

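No member was called for outcome in either station under any alternative run, and few genes were. The most genes any run called were 18 (0.148%) in station A and 6 (0.0554%) in station B, both by the rule of the study. An absence of calls among 100 members is near those shares. For the rule of the study the absence carries no information, since the members were chosen without the genes the study called. Between stations 37 to 71 members were called, where 41.4% to 79.5% of all genes were. With each library left out 38 to 54 members were called, where 51.8% to 75.0% of all genes were. The median log2 fold change of the members in station A, 0.14 with TMM factors, was -0.02 without factors, -0.13 among the low libraries and 0.07 to 0.27 with each library left out. Between stations it was 0.36 without the high libraries SL220771, SL220772 and SL253808, a fit added after seeing the data. Without SL253808 alone, the only one of the 3 high libraries of station B in that comparison, it was -0.31. With each library left out it was -0.42 to -0.024, the last without SL220771. The cause was not tested. In station B it was -0.15 to 0.01 with each library left out. The difference of the mean share in station A was 2.41 points without SL220774 and 6.18 points without SL220769. In station B it was 0.62 points without the 3 high libraries and -0.45 to 0.36 points with each library left out, and between stations -3.15 to -0.95 points, the last without SL220771. Members chosen by mean FPKM gave 52 calls between stations, 5 higher and 47 lower, and those chosen by median CPM gave 47, 11 higher and 36 lower. Of all genes 60.8% were called in that fit, 30.2% higher and 30.6% lower. Leaving out mitochondrial genes by name was not run, since members have no names here. No paired analysis was possible, since each heifer gave a single library with a single outcome and the labels give no pairs. Each member had 100 or more counts in each library, and an effect of depth was not tested.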
